A study of Danio rerio with 8 samples.

Results

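The genes described here copy DNA and divide the cell: 44 named genes of DNA replication (S phase), mitosis, and the cyclins and regulators that time both. They were found by symbol, letter case ignored. Of the 44 genes, 40 matched 1 Ensembl gene ID, 3 (mcm6, rrm2 and ccnd2a) matched 2 IDs each, and ube2c matched none and was not analysed here. The 46 IDs, of 32189 in the table, comprised 22 S-phase IDs, 15 mitosis IDs and 9 IDs of cyclins and regulators. All 46 passed the filter on low counts. The gene ccnd2a was found only under the capital symbol CCND2, and birc5a only under BIRC5. Which zebrafish paralogue those IDs stand for is uncertain, so the CCND2 IDs are named by symbol and ID.

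Before S phase, the origin recognition complex with Cdc6 and Cdt1 loads the Mcm helicase onto DNA. At the fork, primase, polymerases, clamp and ligase then copy the strands, while ribonucleotide reductase and thymidylate synthase supply the nucleotides. D-type cyclins, which growth factor signals such as Fgf can raise, move cells through G1, and E-, A- and B-type cyclins with their kinases carry them through S phase into mitosis. Apart from the inhibitor cdkn1ca, such genes are used in the embryonic hindbrain mainly by neural progenitors, many of them at the ventricular surface. Most are switched off as neurons differentiate.

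RNA was sequenced from 8 dissections, each of 1 zebrafish hindbrain with surrounding tissue, taken at 24 to 25 hours post-fertilisation (hpf). The 4 ca_fgfr1 embryos were heterozygous for Tg(hsp70:ca-fgfr1), a transgene that makes a constitutively active Fgf receptor 1 under a heat shock promoter, which acts in all heated tissues. The 4 control embryos were labelled wild type and came from the same clutch. Both groups were raised at 28.5°C, heated to 38.5°C for 30 min from 22 hpf and left for 2 h, and qPCR after RNA extraction sorted them by transgene, so the values describe the first hours of receptor activity.

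Libraries held 13173019 to 20541155 counts. Fgf response genes (spry, etv, dusp6 and il17rd) served as a check of the labels: their summed level was 870 to 1660 CPM (counts per 1e6 of the scaled library total) in ca_fgfr1 and 267 to 460 CPM in control. Estimates were on the higher side for 8 of 8. The groups overlapped for il17rd and for etv5a, which was nearly level (mean 67.8 CPM in ca_fgfr1 and 65.9 CPM in control). Hindbrain markers were present in every library, at 415 to 469 CPM in ca_fgfr1 and 456 to 654 CPM in control. Control replicate 1 stood apart, with the lowest total and a scaling factor of 0.8113 against 0.9402 to 1.145 in the other 7 libraries, and values that move with it are given with and without it. In bulk RNA, fewer cells of a type and less RNA per cell cannot be told apart.

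No replication or mitosis gene passed the test between ca_fgfr1 and control hindbrains. A call needed an adjusted p no higher than 0.01 and a change of 2-fold or more, and held only if all libraries of 1 group or the other had normalised counts over 30. Of the 46 IDs 0 were called, against 3 of 18075 IDs in the whole table (0.0166%). At an adjusted p of 0.05 or less the count was 0 of 46, against 9 of all tested IDs (0.0498%), and the smallest adjusted p of the 46 was 0.537 (edgeR quasi-likelihood test). Of the 8 Fgf response genes only 1 passed at 0.05 in this test. Among those that did not, etv5b had a log2 fold change of 1.8 and an adjusted p of 0.253 (edgeR). Not passing therefore does not show that a gene was unchanged. DESeq2 also gave 0 of the 46 IDs at an adjusted p of 0.05 or less, against 82 of all 18075 tested IDs. At an unadjusted p under 0.05, 2 IDs were higher in ca_fgfr1, where 2.14% of all tested IDs were, and 0 were lower, where 3.21% were. The same 2 IDs, ccnd1 and CCND2 (ENSDARG00000051748), had every ca_fgfr1 library above every control library. That pattern was met by 1.9% of all tested IDs, and its opposite, met by 1.44% of them, was found in 0 of the 46. Lower IDs were rarer at like levels. Of 3680 tested IDs in the level range of the middle 80% of the 46, 106 had the first pattern and 10 its opposite. At an unadjusted p under 0.05 (edgeR), 85 of the 3680 were higher and 36 lower.

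The fold changes were small. Of the 46 IDs, 35 were on the higher side and 11 on the lower, with a median log2 fold change of 0.09 (ca_fgfr1 minus control). The median was -0.04 over all tested IDs. It was also 0.09 over the 3680 IDs in the range of level that held the middle of the 46. The group's median thus did not stand off that of genes expressed at like levels. On the lower side were 23.9% of the 46 IDs, 54.1% of all tested IDs and 37.1% of the 3680. The difference between these shares was not tested. Changes of less than 1.25-fold were estimated for 36 IDs and of less than 1.5-fold for 42, and 0 reached 2-fold. The estimates ran between -0.96 and 0.96, and their standard error (SE) had a median of 0.25. The split of 35 to 11 moved most with control replicate 4, the lowest library for 23 of the 46 IDs. Without it 25 IDs were on the higher side and 21 on the lower, with a median of 0.05, and the S-phase IDs were split 10 to 12 and the fork IDs 2 to 5. By class, with all libraries, the median was 0.08 for the S-phase IDs (16 higher, 6 lower), 0.08 for the mitosis IDs (11 higher, 4 lower) and 0.16 for the cyclins and regulators (8 higher, 1 lower).

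**Figure D1:**
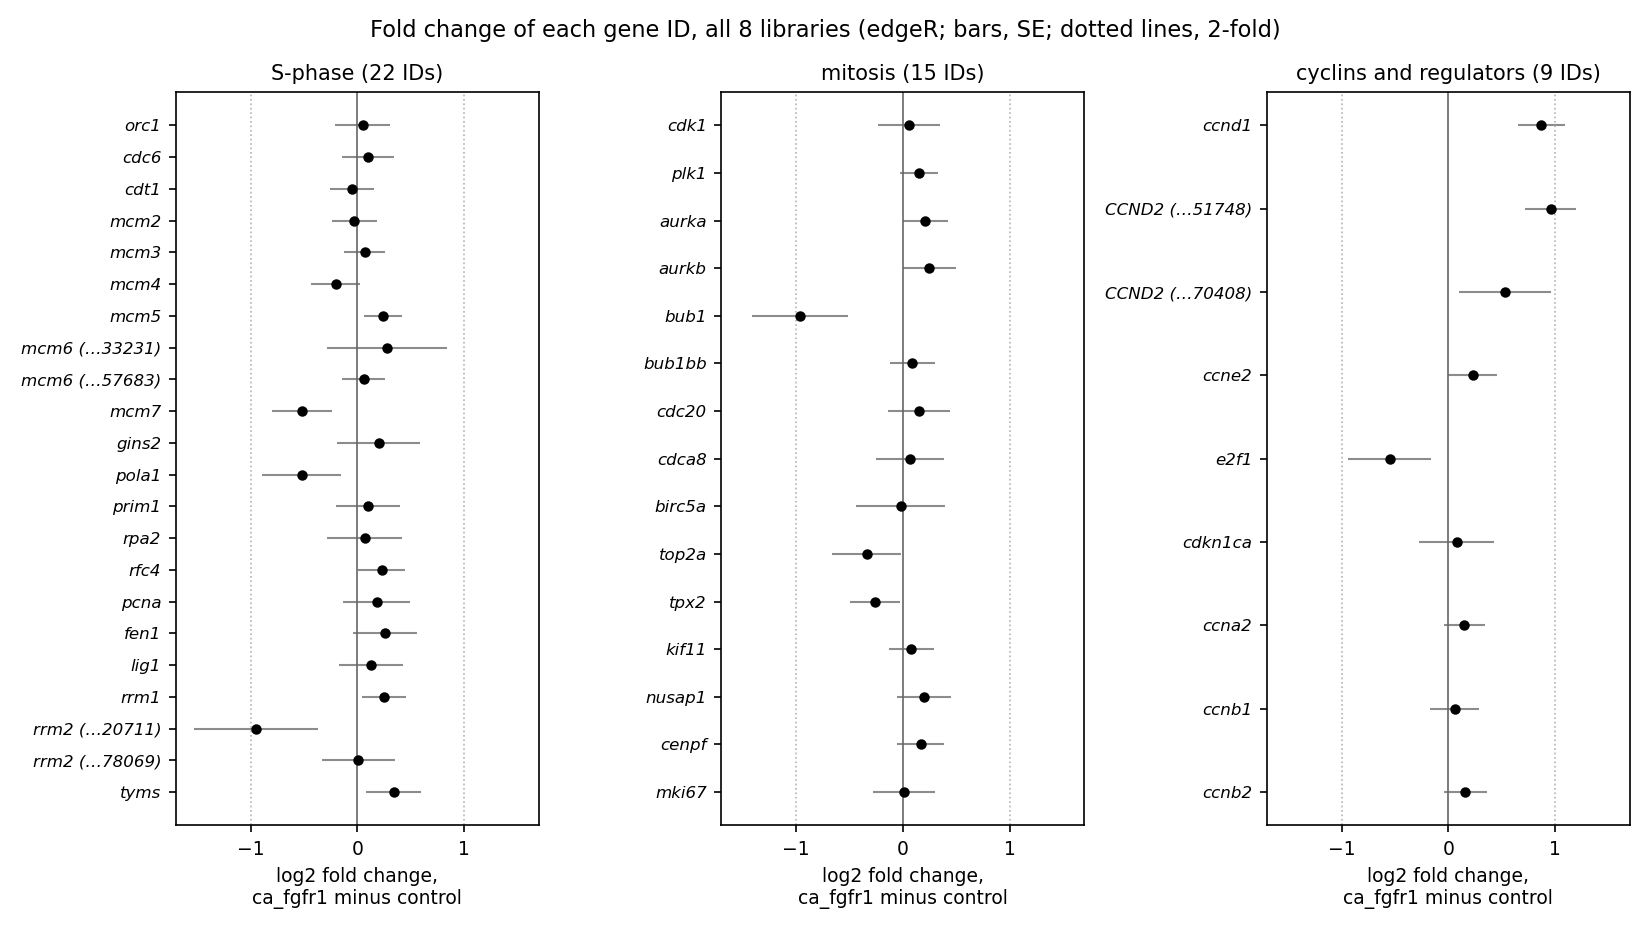
Log2 fold change of each of the 46 gene IDs, ca_fgfr1 minus control, with its SE as a horizontal bar, in panels for S phase, mitosis, and cyclins and regulators; positive values are higher in ca_fgfr1 and dotted lines mark 2-fold. Most points lie near 0, the D-type cyclins ccnd1 (0.87) and CCND2 (0.96) lie farthest to the right, and bub1 (-0.96) and the low rrm2 ID (-0.95) farthest to the left.

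Licensing genes, which mark and open the origins, had a median log2 fold change of 0.06 over 11 IDs. The Mcm subunits together form the ring-shaped replicative helicase. The subunit mcm2 was at 696, 594, 868 and 726 CPM in ca_fgfr1 replicates 1 to 4 and at 562, 759, 896 and 733 CPM in control replicates 1 to 4. The ranges lay almost on top of each other, and the log2 fold change was -0.03 ± 0.21 (SE; adjusted p = 0.989, edgeR). For mcm5 the levels were 1020, 1070, 1150 and 1090 CPM in ca_fgfr1 and 801, 957, 1050 and 872 CPM in control. The ca_fgfr1 libraries sat at the upper end, with 1 control library above the lowest of them, and the log2 fold change was 0.24 ± 0.18 (adjusted p = 0.877, edgeR).

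The subunit mcm7 went the other way. Its levels were 535, 252, 452 and 543 CPM in ca_fgfr1 and 443, 717, 753 and 642 CPM in control. Control replicate 1 fell among the ca_fgfr1 values and the other 3 controls lay above all of them, with a log2 fold change of -0.52 ± 0.28 (adjusted p = 0.866, edgeR), or -0.66 without control replicate 1. The remaining helicase subunits, mcm3 (0.07), mcm4 (-0.20) and the abundant mcm6 ID (0.06), and the loaders orc1 (0.05), cdc6 (0.10) and cdt1 (-0.05), were within 1.25-fold with all libraries. Without control replicate 1, mcm4 was just beyond it at -0.33 and cdc6 was at 0.27. The helicase cofactor gins2 was then at 0.80, against 0.20 ± 0.39 with all libraries. Over 19 other settings, among them each library left out in turn, gins2 ran between 0.01 and 0.80. In the same settings cdc6 ran between -0.05 and 0.27. The second mcm6 ID (ENSDARG00000033231) had between 0.0937 and 1.32 CPM, too few counts for a statement.

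Genes of the fork had a median log2 fold change of 0.13 over 7 IDs. The gene pcna encodes the sliding clamp that holds the polymerases on DNA. It was at 3120, 4040, 3070 and 3080 CPM in ca_fgfr1 and at 4990, 2850, 2230 and 1660 CPM in control. Control replicate 1 was the highest of all 8 libraries and the other 3 controls lay under every ca_fgfr1 library. With all libraries the log2 fold change was 0.18 ± 0.31 (adjusted p = 0.950, edgeR), and without control replicate 1 it was 0.56 (adjusted p = 0.151). Over the 19 other settings it ran between -0.02 and 0.56.

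Flap endonuclease fen1 and DNA ligase lig1, which process and join Okazaki fragments, had the same order of libraries at the top. Levels of fen1 were 627, 898, 643 and 687 CPM in ca_fgfr1 and 1000, 521, 477 and 391 CPM in control (log2 fold change 0.26 ± 0.30, adjusted p = 0.920, edgeR, and 0.62 without control replicate 1). Levels of lig1 were 272, 354, 282 and 265 CPM in ca_fgfr1 and 445, 262, 194 and 172 CPM in control (0.13 ± 0.30, adjusted p = 0.969, edgeR, and 0.48 without control replicate 1). For both genes control replicate 1 was highest and the other controls lay under all ca_fgfr1 libraries. Estimates over the 19 settings ran between 0.10 and 0.62 for fen1 and between -0.04 and 0.48 for lig1. The primase subunit prim1 (0.10), the single-strand binding protein subunit rpa2 (0.07) and the clamp loader subunit rfc4 (0.23) were within 1.25-fold with all 8 libraries. Without control replicate 1 they were beyond it, at 0.47, 0.46 and 0.38 in the same order. Their lowest estimates over the 19 settings were -0.04, -0.16 and 0.12. The polymerase alpha subunit pola1 had an estimate of -0.52 ± 0.37 (-0.76 without control replicate 1), with 96.7, 56.3, 62.8 and 57.0 CPM in ca_fgfr1 and 44.5, 68.5, 157 and 123 CPM in control. Its control libraries were spread far apart and held both the lowest and the highest of the 8 values.

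Nucleotide supply was described by 4 IDs. Thymidylate synthase, tyms, had 90.7, 105, 67.7 and 113 CPM in ca_fgfr1 and 108, 67.8, 58.8 and 61.7 CPM in control (0.34 ± 0.26, adjusted p = 0.876, edgeR, and 0.58 without control replicate 1). The groups overlapped through control replicate 1 and ca_fgfr1 replicate 3. Ribonucleotide reductase is made of a large subunit, rrm1 (0.25 ± 0.21), and a small one, rrm2. The abundant rrm2 ID (ENSDARG00000078069) was at 2930, 3550, 2640 and 2430 CPM in ca_fgfr1 and at 5260, 2380, 2170 and 1670 CPM in control, again with control replicate 1 above all and the rest of the controls below all. Its log2 fold change was 0.01 ± 0.34 (adjusted p = 0.998, edgeR) with all libraries and 0.47 (adjusted p = 0.163) without control replicate 1. Over the 19 other settings it ran between -0.18 and 0.47. The other rrm2 ID (ENSDARG00000020711) rested on a single library, with 10.5 to 14.6 CPM in ca_fgfr1 and, in control, 66.6 CPM in replicate 1 against 9.22 to 15.3 CPM in replicates 2 to 4. Its estimate of -0.95 ± 0.58 became 0.20 without control replicate 1. Reads that match both rrm2 IDs, or both mcm6 IDs, were divided between them in the counting, so the split is uncertain.

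**Figure D2:**
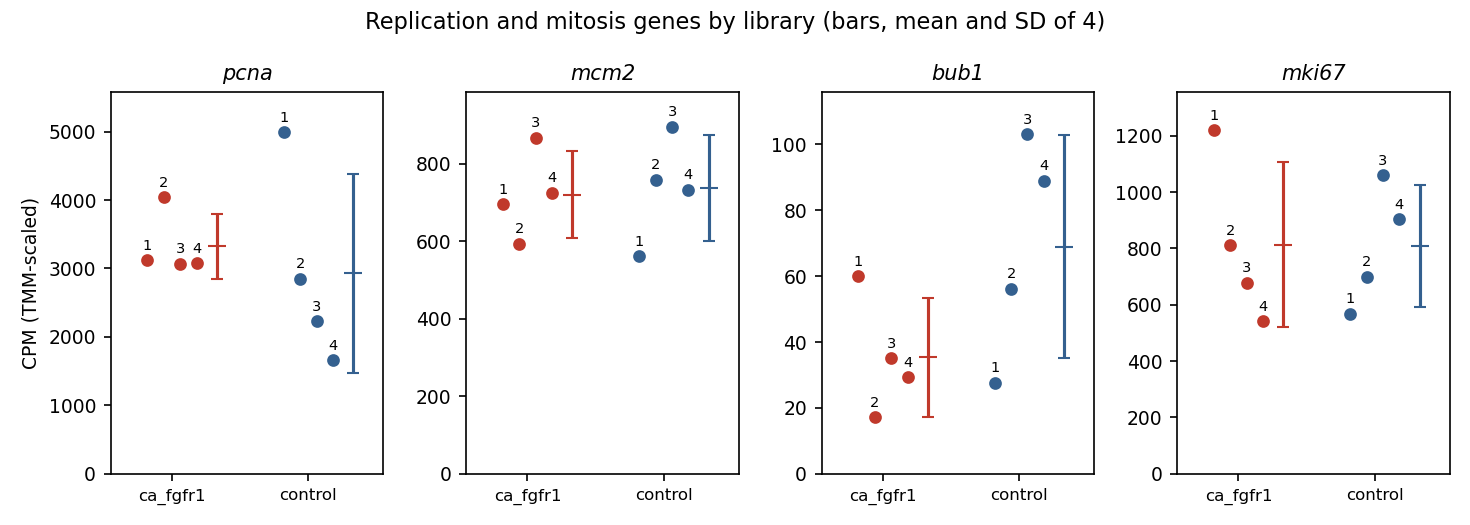
CPM of pcna, mcm2, bub1 and mki67 in the 4 ca_fgfr1 (red, left) and 4 control (blue, right) libraries, numbered by replicate, with the mean and SD of each group beside the points; each panel has its own axis starting at 0. For pcna control replicate 1 (4990 CPM) lies above all other libraries and replicates 2 to 4 (1660 to 2850 CPM) under all ca_fgfr1 libraries, and in the other panels the groups overlap.

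Among the mitosis genes, the kinases, the spindle checkpoint and the activator of the anaphase-promoting complex had a median log2 fold change of 0.15 over 7 IDs. Cdk1, the kinase that starts mitosis, was at 343, 416, 368 and 399 CPM in ca_fgfr1 and at 613, 344, 268 and 244 CPM in control (0.06 ± 0.29, adjusted p = 0.986, edgeR). Control replicate 1 was the highest and replicates 3 and 4 the lowest of the 8, and the estimate without replicate 1 was 0.41. Over the 19 other settings the cdk1 estimate ran between -0.10 and 0.41. Polo-like kinase plk1, which acts in spindle assembly and mitotic exit, had 864, 911, 806 and 779 CPM in ca_fgfr1 and 823, 818, 692 and 691 CPM in control (0.15 ± 0.18, adjusted p = 0.923, edgeR). The ca_fgfr1 values were mostly above and the groups overlapped. The Aurora kinases aurka (0.21 ± 0.21) and aurkb (0.25 ± 0.25), the anaphase activator cdc20 (0.15 ± 0.29) and the checkpoint kinase gene bub1bb (0.09 ± 0.21) were each within 1.25-fold with all libraries. Without control replicate 1 only bub1bb of these 4 stayed there (0.01), with aurka at 0.33, aurkb at 0.49 and cdc20 at 0.50. Lowest estimates over the 19 settings were 0.12 for aurka, 0.13 for aurkb and -0.01 for cdc20.

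The checkpoint kinase bub1, which holds anaphase back until chromosomes are attached, had the lowest estimate of the 46. Its levels were 60.0, 17.1, 35.0 and 29.3 CPM in ca_fgfr1 and 27.6, 56.2, 103 and 88.9 CPM in control. Control replicate 1 sat among the low ca_fgfr1 libraries and ca_fgfr1 replicate 1 above control replicate 2. The log2 fold change was -0.96 ± 0.45 (adjusted p = 0.866, edgeR), which does not pass the test, nor does the -1.22 found without control replicate 1 (adjusted p = 0.144).

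Genes of the chromosomes and spindle had a median of 0.04 over 8 IDs. The proliferation marker mki67, whose protein coats mitotic chromosomes, was at 1220, 812, 678 and 541 CPM in ca_fgfr1 and at 569, 699, 1060 and 904 CPM in control. Each group spanned most of the range of the other, and the log2 fold change was 0.01 ± 0.29 (adjusted p = 0.998, edgeR). Topoisomerase top2a, which untangles sister chromatids, had 522, 250, 394 and 309 CPM in ca_fgfr1 and 252, 404, 583 and 623 CPM in control (-0.34 ± 0.32, adjusted p = 0.898, edgeR). The spindle assembly factor tpx2 had 291, 221, 340 and 298 CPM in ca_fgfr1 and 234, 383, 384 and 377 CPM in control (-0.26 ± 0.23, adjusted p = 0.886, edgeR). For tpx2, 3 controls lay above every ca_fgfr1 library and control replicate 1 near the bottom. The chromosomal passenger genes cdca8 (0.07 ± 0.32) and birc5a (-0.02 ± 0.42), the motor kif11 (0.08 ± 0.21), and the spindle and kinetochore genes nusap1 (0.20 ± 0.25) and cenpf (0.17 ± 0.22) did not pass the test either. Without control replicate 1, cdca8 was at 0.50, birc5a at 0.65, nusap1 at 0.44 and top2a at -0.54, while kif11 (0.10) moved little. Lowest estimates over the 19 settings were -0.09 for cdca8, -0.24 for birc5a and 0.07 for nusap1, and the highest for top2a was -0.18.

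The D-type cyclins had the largest positive estimates of the 46 IDs. These cyclins bind Cdk4 and Cdk6 and start the inactivation of the retinoblastoma protein in G1. The level of ccnd1 (ENSDARG00000101637) was 817, 838, 644 and 641 CPM in ca_fgfr1 and 423, 474, 419 and 295 CPM in control. The lowest ca_fgfr1 library was above the highest control, and the mean was 735 ± 107 CPM in ca_fgfr1 and 403 ± 76.1 CPM in control (SD, n = 4 each). The log2 fold change was 0.87 ± 0.22, with an adjusted p of 0.540 in edgeR and 0.0541 in DESeq2, so neither tool passed it at 0.05.

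CCND2 (ENSDARG00000051748) was at 131, 174, 151 and 189 CPM in ca_fgfr1 and at 111, 87.9, 67.0 and 66.0 CPM in control. The groups again did not overlap, with control replicate 1 the closest to the ca_fgfr1 values. Means were 161 ± 25.5 CPM in ca_fgfr1 and 83.1 ± 21.4 CPM in control (SD, n = 4 each). The log2 fold change was 0.96 ± 0.24, with an adjusted p of 0.537 in edgeR and 0.0689 in DESeq2. Over 19 other settings, the estimate stayed between 0.73 and 0.96 for ccnd1 and between 0.84 and 1.12 for this CCND2 ID. The other CCND2 ID (ENSDARG00000070408) had 1.03 to 2.81 CPM in ca_fgfr1 and 0.750 to 1.69 CPM in control (0.53 ± 0.43).

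**Figure D3:**
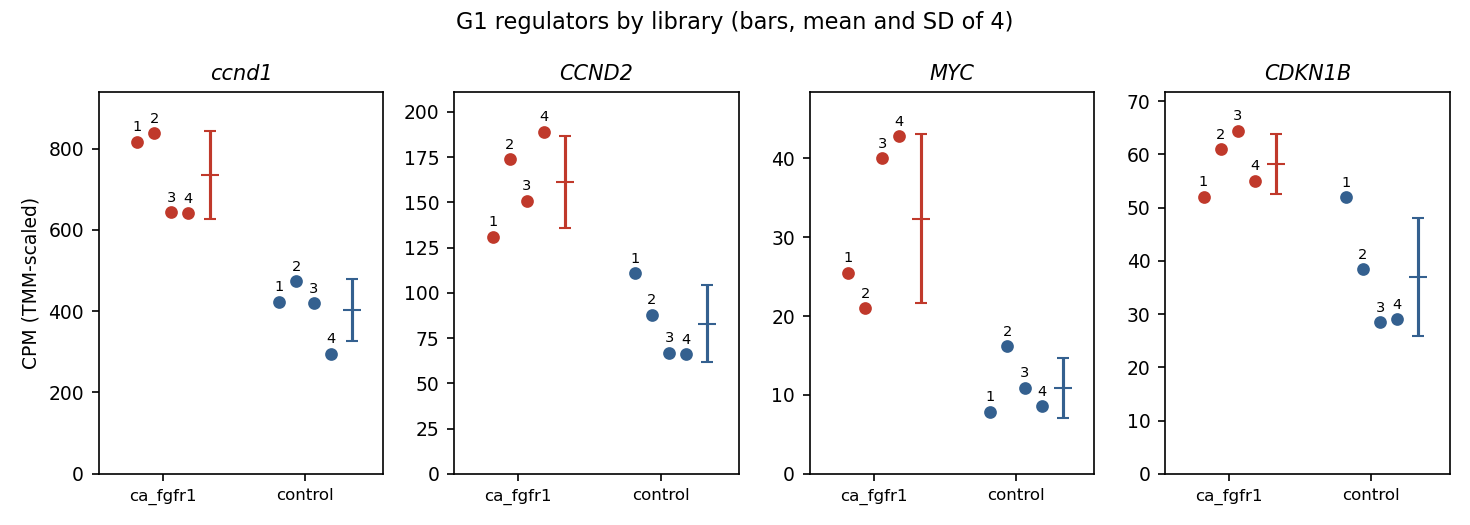
CPM of ccnd1, CCND2 (ENSDARG00000051748), MYC (ENSDARG00000045695) and CDKN1B (ENSDARG00000054271) in the 4 ca_fgfr1 (red, left) and 4 control (blue, right) libraries, numbered by replicate, with the mean and SD of each group; each axis starts at 0. In each panel the lowest ca_fgfr1 library is above the highest control, narrowly for CDKN1B (52.1 against 52.0 CPM), and none of the 4 passed at an adjusted p of 0.05 in edgeR, while MYC did in DESeq2. CCND2, MYC and CDKN1B each matched a second tested ID that is not drawn.

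None of the other regulators passed the test. Cyclin E2, ccne2, which acts at the entry into S phase, had an estimate of 0.23 ± 0.23 (0.38 without control replicate 1), cyclin A2, ccna2, 0.15 ± 0.19, and the mitotic cyclins ccnb1 and ccnb2 had 0.06 ± 0.23 and 0.16 ± 0.20. Levels of ccna2 were 561, 546, 482 and 457 CPM in ca_fgfr1 and 502, 522, 440 and 383 CPM in control, and the groups overlapped. The Cdk inhibitor cdkn1ca, which stops the cycle as cells differentiate, was at 447, 568, 363 and 379 CPM in ca_fgfr1 and at 768, 371, 264 and 265 CPM in control (0.08 ± 0.35, adjusted p = 0.985, edgeR). Control replicate 1 was the highest of the 8, and without it the estimate was 0.54 (adjusted p = 0.158). Over the 19 other settings the cdkn1ca estimate ran between -0.09 and 0.54. The transcription factor e2f1, which drives S-phase genes, was low, with 3.17 to 6.30 CPM in ca_fgfr1 and 3.41 to 9.61 CPM in control (-0.55 ± 0.39, adjusted p = 0.870, edgeR).

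The spread among controls was wider than among ca_fgfr1 libraries. Over the 46 IDs the median coefficient of variation was 15.5% in ca_fgfr1 and 28.3% in control, and 15.0% in control without replicate 1. Over all tested IDs it was 25.4% in ca_fgfr1, 36.7% in control and 20.9% in control without replicate 1. Control replicate 1 was the highest of the 8 libraries for 15 of the 46 IDs and the lowest for 8.

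The departures of control replicates 1 and 4 differed between roles. Set against the mean of the other 3 controls, control replicate 1 had a median ratio of 2.16 over the fork IDs, with 6 of 7 above all 3 and pola1 under them. The median ratio was 2.13 over nucleotide supply and 0.770 over licensing and helicase, where 8 of 11 IDs were under all 3 other controls. Within the licensing IDs, cdc6 and the helicase cofactor gins2 were above all 3, gins2 at 216 CPM against 61.8 to 78.1 CPM. Mitosis genes were split, with birc5a at 3.40 and cdca8 at 2.44 times the mean of the other controls, and bub1 at 0.334 and top2a at 0.469 times that mean. Over all tested IDs this library was above the other 3 controls for 39.5% and under them for 41.5%. Control replicate 4 had a median ratio of 0.587 over the fork IDs, with 6 of 7 under the other 3 controls, 0.649 over nucleotide supply and 0.992 over licensing and helicase, and 5 of the 7 kinase and checkpoint IDs were under the other 3. Over all tested IDs it was under the other 3 controls for 24.6%. Departures by role were also found in ca_fgfr1 libraries. In ca_fgfr1 replicate 2, 6 of 7 fork IDs were above the other 3 of its group (median ratio 1.30). There 6 of 11 licensing IDs were under them (0.913), where 28.8% and 29.1% of all tested IDs were above and under. In ca_fgfr1 replicate 3, 8 of 11 licensing IDs were above the other 3, where 19.7% of all tested IDs were.

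**Figure D4:**
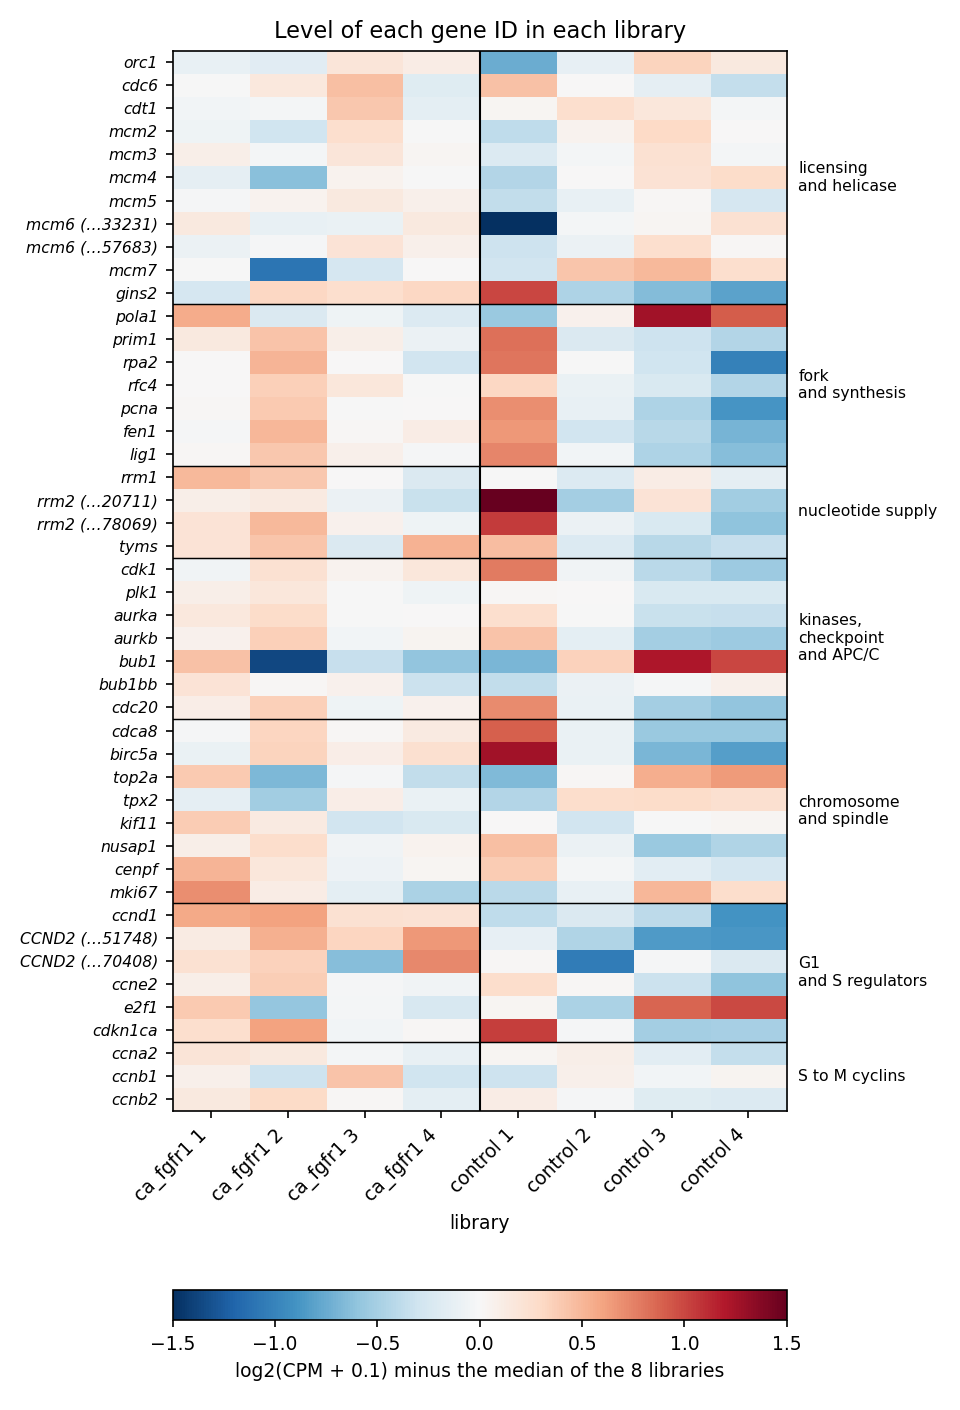
Level of each of the 46 gene IDs (down the page, by role) in ca_fgfr1 replicates 1 to 4 (left of the line) and control replicates 1 to 4 (right), as log2 CPM minus the median of the 8 libraries; red is above and blue under that median. Control replicate 1 is red for most fork and nucleotide supply genes and blue for most licensing genes, and ccnd1 and the abundant CCND2 ID (ENSDARG00000051748) are on the red side in all ca_fgfr1 libraries.

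Cell type markers differed in the same library, and some differed between the groups. The summed level of epidermal keratin and epithelial markers (7 of 8 genes matched, none at 0) was 6900 to 13100 CPM in ca_fgfr1 and 8730 to 23900 CPM in control, highest in control replicate 1, where 6 of the 7 were at their highest. Estimates were on the lower side in ca_fgfr1 for 6 of the 7 and on the higher for cdh1 (0.12). For tp63 the groups did not overlap (39.4 to 59.5 CPM in ca_fgfr1, 77.6 to 99.3 CPM in control). Its log2 fold change was -0.79 (adjusted p = 0.657, edgeR), or -0.73 without control replicate 1. That pattern was met by 1.44% of all tested IDs. Neural progenitor markers (7 of 8 matched, none at 0) summed to 1870 to 2970 CPM in ca_fgfr1 and 2490 to 4020 CPM in control, again highest in control replicate 1. That sum was carried by fabp7a (ENSDARG00000007697, 1410 CPM in that library, 155 to 548 CPM in the others) and her4.1 (567 CPM, against 142 to 323 CPM), while sox2 (104 CPM) and sox19a (324 CPM) were not high there. Markers of differentiating neurons (8 of 8 matched, none at 0) summed to 1100 to 1520 CPM in ca_fgfr1 and 1020 to 1800 CPM in control, where control replicate 1 was the lowest of all 8, although nhlh2 was highest there at 511 CPM. Control replicates 2 to 4 (1670 to 1800 CPM) lay above every ca_fgfr1 library. Without control replicate 1, log2 fold changes were -0.84 for elavl3, -0.92 for elavl4, -0.82 for neurod4 and -0.83 for neurod1. They were -0.15 for neurog1, 0.01 for isl1 and 0.60 for nhlh2, and the 2 stmn2a IDs were at -0.02 and -0.96. The smallest adjusted p among these was 0.144 (edgeR). Muscle markers (4 of 6 genes matched) summed to 2.34 to 7.58 CPM in ca_fgfr1 and 2.53 to 167 CPM in control, highest in control replicate 4. Every library but control replicate 4 had 1 ID at 0. That ID was myhz2 in ca_fgfr1 replicate 4, where ACTC1 (ENSDARG00000057911) had 2.09 CPM, and ACTC1 in the others. Heat shock genes (5 of 5 matched, none at 0) summed to 3210 to 6170 CPM in ca_fgfr1 and 3410 to 6920 CPM in control. Control replicate 4 was the highest of all 8 and ca_fgfr1 replicate 4 the next. Among them, hsp90aa1.1 was at 892 CPM in control replicate 4 and 103 to 257 CPM in the other controls. In contrast, dnajb1b was lowest of all 8 in control replicate 4 (18.6 CPM). The part of these differences in the replication and mitosis values was not tested.

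Without control replicate 1, many more IDs had an unadjusted p under 0.05, and none passed the adjusted test. The count was then 17 of 46 higher in ca_fgfr1, where 13.0% of all tested IDs were, and 4 lower, where 13.2% were, and the smallest adjusted p was 0.144 (edgeR). The 17 were 8 S-phase IDs, 6 mitosis IDs and 3 cyclins and regulators. Among them were gins2 (log2 fold change 0.80), fen1 (0.62), pcna (0.56) and birc5a (0.65). The 4 lower ones were mcm7 (-0.66), pola1 (-0.76), bub1 (-1.22) and tpx2 (-0.41). The median log2 fold change of the 46 IDs was then 0.27, against 0.01 over all tested IDs. Shares and medians of IDs expressed at like levels were not computed for this setting, so these values lack that comparison. By role the median was -0.06 over the licensing IDs, which ran between -0.66 (mcm7) and 0.80 (gins2), and 0.47 over the fork IDs, which held pola1 at -0.76. The difference between these roles was not tested. With ca_fgfr1 replicate 2 left out as well, 9 IDs were higher, where 8.76% of all tested IDs were, and 2 lower, where 9.28% were, with a median of 0.24 and a smallest adjusted p of 0.264.

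The summed level of the 46 IDs, as a share of the transcripts counted, was 23200, 24300, 21300 and 20300 CPM in ca_fgfr1 and 26900, 19800, 19500 and 16800 CPM in control. Control replicate 1 was the highest and the other 3 controls were under every ca_fgfr1 library. The sum is weighted to abundant IDs, such as pcna (4990 CPM in control replicate 1) and the abundant rrm2 ID (5260 CPM there). In mean log2 CPM, which weights the IDs alike, the libraries were closer. It was 7.77, 7.73, 7.67 and 7.62 in ca_fgfr1 and 7.79, 7.54, 7.57 and 7.42 in control. The mean log2 CPM of the S-phase IDs minus that of the mitosis IDs, a measure of balance between the phases, was -0.36, -0.16, -0.10 and -0.14 in ca_fgfr1 and -0.25, -0.28, -0.14 and -0.34 in control. The ranges overlapped almost fully. The S-phase mean includes the low mcm6 ID (ENSDARG00000033231), which lowers the value of control replicate 1, where it had 0.0937 CPM.

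**Figure D5:**
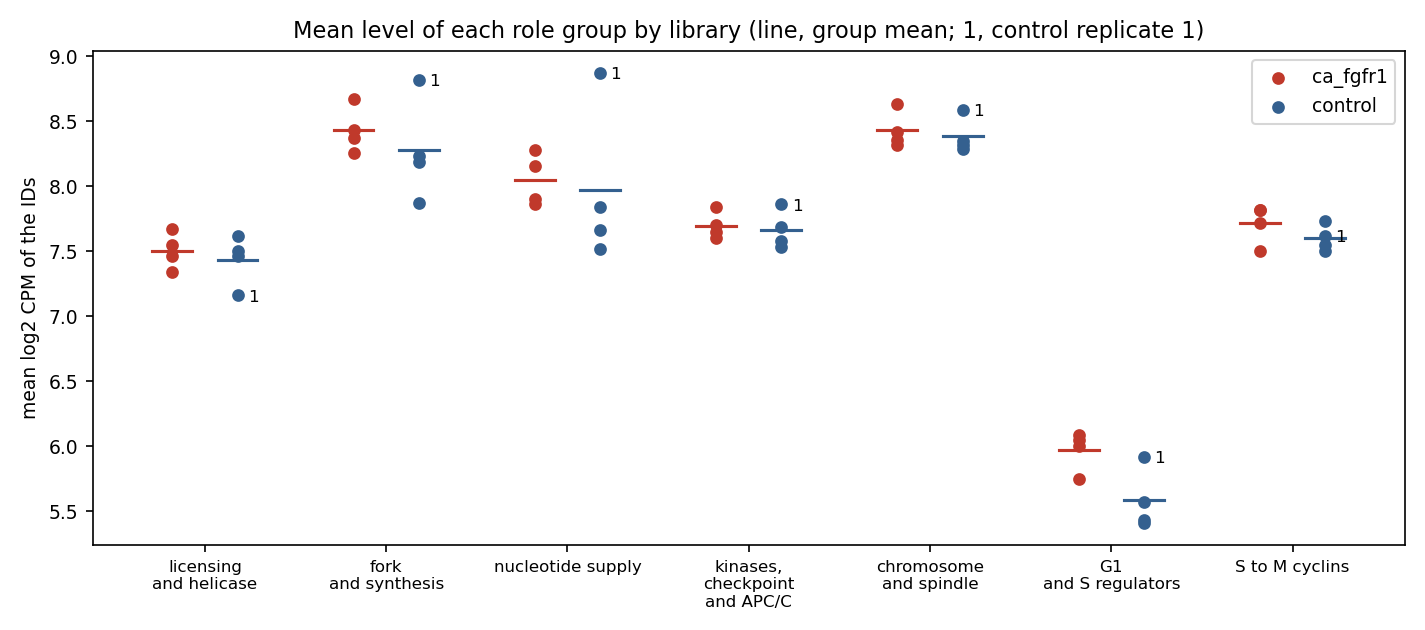
Mean log2 CPM over the gene IDs of each role in every library, ca_fgfr1 (red, left) beside control (blue, right), with a line at each group's mean and control replicate 1 marked 1. Control replicate 1 is the highest library for fork genes (8.82) and nucleotide supply (8.87) and the lowest for licensing and helicase (7.16). The licensing mean includes the mcm6 ID ENSDARG00000033231, with 0.0937 CPM in control replicate 1, and the place of this library there depends on that ID.

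Other cell cycle genes were taken from a list of 139 IDs that leaves out the 46. Of the 137 tested, 72 were on the higher side and 65 on the lower with a median log2 fold change of 0.02. That split was more even than the 35 to 11 of the 46 IDs. In edgeR 0 passed at an adjusted p of 0.05 or less, where 0.0498% of all tested IDs did. At an unadjusted p under 0.05, 2 were higher and 1 lower, where 2.14% and 3.21% of all tested IDs were. DESeq2 passed 1, MYC, at an adjusted p of 0.05 or less, against 82 of all 18075 tested IDs. In 4 of the 137 all ca_fgfr1 libraries were above all controls, and in 0 below, where 1.9% and 1.44% of all tested IDs were. The median was 0.03 over 42 replication IDs, -0.02 over 54 mitosis IDs and 0.08 over 41 regulators. These mitosis IDs were split 24 higher to 30 lower, where the mitosis IDs of the 46 were split 11 to 4. The lists also differed in level. Mean log2 CPM was 7.04 in ca_fgfr1 and 7.08 in control over these mitosis IDs, and 8.09 and 8.05 over those of the 46. Because the share on the lower side differed with level, the splits of the lists are not compared at like levels.

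Among the regulators, MYC (ENSDARG00000045695), a transcription factor of growth and G1 entry, was at 25.5, 21.0, 40.0 and 42.8 CPM in ca_fgfr1 and at 7.87, 16.2, 10.9 and 8.54 CPM in control. All ca_fgfr1 libraries were above all controls, with a log2 fold change of 1.57 ± 0.33 and an adjusted p of 0.330 in edgeR and 0.00412 in DESeq2, so the call depends on the tool. CDKN1B (ENSDARG00000054271), an inhibitor of Cdk2 complexes, was at 52.1, 61.0, 64.5 and 55.1 CPM in ca_fgfr1 and at 52.0, 38.4, 28.5 and 29.0 CPM in control (0.66 ± 0.25, adjusted p = 0.866, edgeR). The phosphatase cdc25b, which activates Cdk1, had 250, 137, 259 and 228 CPM in ca_fgfr1 and 228, 364, 345 and 368 CPM in control (-0.58 ± 0.26, adjusted p = 0.866, edgeR). Control replicate 1 lay among the ca_fgfr1 values and the other controls above all of them. The other named genes were picked by smallest p within their direction and class. An unnamed gene of 1 direction can thus have a smaller p than a named gene of the other. Regulators picked were mycn (0.49) on the higher side, and e2f4 (-0.55), btg1 (-0.40) and MYCL (ENSDARG00000034956, -0.45) on the lower. Mitosis genes picked were RANGAP1 (ENSDARG00000056059, 0.35), ncapg (0.22) and tacc3 (0.18) on the higher side, and smc4 (-0.53) and dlgap5 (-0.43) on the lower. Replication genes picked were orc3 (0.41), rpa1 (0.32) and hells (0.33) on the higher side, and chaf1a (-0.35), chaf1b (-0.32) and timeless (-0.32) on the lower.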

How the data were processed

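Total RNA of 8 single dissections was amplified (SMARTer), made into libraries (NexteraXT) and sequenced as single-end reads. The authors aligned reads to GRCz10 with STAR 2.5.1b and estimated gene counts with RSEM 1.2.31. The deposited values are these expected counts, which were rounded to whole numbers for the tests here. The authors also rounded their counts before their own test. Whether counting used strand is not given in the sources used here. Columns marked C and F were read as control and ca_fgfr1. Symbols covered 26350 of 32189 IDs (81.9%) and do not separate all paralogues.

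The test was that of edgeR 4.0.16 in R 4.3.3 (filterByExpr, TMM, quasi-likelihood F-test, all 8 libraries, no covariates), with Benjamini-Hochberg adjustment over 18075 IDs. SE was obtained from the log2 fold change and the square root of its F statistic. CPM are shares of the TMM-scaled total and cannot be compared between genes, since no gene lengths were used. Alternatives were other scalings and filters, limma 3.58.1 (voom), DESeq2 1.42.0, a replicate block and leaving out libraries. DESeq2 was first run with its independent filtering set to 0.01. It was changed to the default, 0.1, after its counts had been seen, since the study used the defaults. Both gave 45 called genes and 82 at an adjusted p of 0.05 or less. No pair of libraries of a group agreed within sampling noise (chi-square per degree of freedom at least 25.6). Steps were tested on simulated data.

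The genes and lists were chosen with earlier results of these data known. All 46 IDs may be named. Of the wider list, the 3 smallest p-values in each direction and class are named.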

Additional observations from a re-analysis of the deposited data

Results flagged for a closer look

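In 9 of 114 groups of 4 libraries, 1 library lay far from the other 3 by the gap to its nearest neighbour over the whole range (Dixon's test at 95%), and chance gives about 1 in 20 groups, or 5.7 here. In control replicate 1, gins2 was at 216 CPM (the others 61.8 to 78.1), prim1 at 170 CPM (70.4 to 82.1), the rrm2 ID ENSDARG00000020711 at 66.6 CPM (9.22 to 15.3) and tpx2 at 234 CPM (377 to 384). In control replicate 2, kif11 was at 639 CPM (774 to 794). In ca_fgfr1 replicate 1, gins2 was at 90.5 CPM (128 to 134) and pola1 at 96.7 CPM (56.3 to 62.8). In ca_fgfr1 replicate 2, pcna was at 4040 CPM (3070 to 3120), and in ca_fgfr1 replicate 3, cdt1 was at 95.2 CPM (65.0 to 70.0).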

How the results depend on the processing

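No replication or mitosis ID was called changed, or reached an adjusted p of 0.05, under any setting run. Genes called changed in the whole table (3) numbered 1 with relative log expression, upper-quartile or library-total scaling and with robust fitting, 6 with no filter, limma-voom or the newer quasi-likelihood method, 5 with a filter of 5 CPM in 4 libraries, 45 with DESeq2, 9 at an adjusted p of 0.05 alone, 0 without control replicate 1 and ca_fgfr1 replicate 2, and 0 to 1 with each library left out in turn. Genes at an adjusted p of 0.05 or less (9) numbered 14 with no filter, 82 with DESeq2 and 1 to 13 with a library left out.

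IDs of the 46 at an unadjusted p under 0.05 (2) numbered 2 to 21 with a library left out and 11 without both libraries named above. The highest count came without control replicate 1. With a library left out, the median log2 fold change was -0.012 to 0.232 for S phase (0.083 with all 8; 0.232 without control replicate 1 and -0.012 without control replicate 4), 0.023 to 0.313 for mitosis (0.081) and 0.096 to 0.379 for cyclins and regulators (0.155). Without both libraries it was 0.284 for mitosis and 0.290 for cyclins and regulators. The sign changed in 1 or more of 19 settings for 20 of the 46 IDs.

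Correlations of same-numbered deviations over all tested IDs showed no clear pairing by replicate number (-0.293, -0.0132, 0.220 and 0.194). Being few and mixed in sign, they cannot exclude a pairing. Some marker sums did follow the number. Heat shock genes were highest in replicate 4 of both groups (6170 and 6920 CPM, others 3210 to 5400 CPM). Blood genes were highest in replicate 3 of both (160 and 270 CPM, others 3.35 to 81.9 CPM). Hindbrain, neural progenitor, neuron, epidermal, neural crest, mesenchyme and otic sums did not peak at the same number. A link to handling was not tested. A replicate block left 0 called genes and 2 at an adjusted p of 0.05 or less, and 2 of the 46 IDs at an unadjusted p under 0.05.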
